A study of Mus musculus with 4 samples.

Results

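The small subunit of the cytosolic ribosome is built from 1 ribosomal RNA and a set of small basic proteins, and 32 genes for these proteins were followed here in ribosome footprint counts from MLE-12 cells. The members were the rows of the count table whose Ensembl identifiers stand in a list of 32 small-subunit genes, from Rpsa to Rps29 and Fau, out of 53465 identifiers in all. The list itself supplied the pairs of identifier and symbol. All 32 symbols are in the RefSeq gene table of GRCm38.p6, which gives no Ensembl identifier, so the pairs were not checked against an annotation. Rack1, which also sits on this subunit, was not in the list and was not analysed here.

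MLE-12 is a mouse lung epithelial line immortalized with a viral large T antigen and used as a stand-in for alveolar type 2 cells. Both groups came from this 1 line, so the libraries describe 1 cell line and no animal. The control group had 2 libraries (replicates 1 and 2) from cells cultured without 1-nitropyrene. The treated group had 2 libraries (replicates 2 and 3) from cells cultured with 5 µM 1-nitropyrene, a nitro-arene found in diesel exhaust particles, for 12 h. Before lysis all cells received a wash with cycloheximide, a drug that freezes ribosomes on the mRNA. Whether the control medium held the solvent of the compound is not given in the sources used here. Lung and epithelial markers could not be looked up by symbol, so the label of the line was not checked. The labels do not say whether a group's libraries are separate cultures. The p-values therefore cover only the spread between the libraries at hand, and that spread may be technical. In the main fit it came from the trend over genes, not from each gene's own replicates.

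Each ribosome carries a single copy of nearly every one of these proteins, and cells make them in step with the proteins of the large subunit. Their mRNAs are among the most abundant in growing cells. They typically begin with a C followed by an unbroken run of pyrimidines, the terminal oligopyrimidine tract, through which the growth-regulating kinase mTOR and the RNA-binding protein LARP1 control how many ribosomes load on them. A footprint is the piece of mRNA that a ribosome shields from nuclease. A change in footprints can therefore reflect the amount of mRNA or its loading with ribosomes, and in a bulk lysate a change in every cell and a change in some of the cells cannot be told apart.

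The start sites of some members are shown because this tract is the feature by which the class is known. In the lines that follow, 15 bases before and 15 bases from the RefSeq start are printed 5′ to 3′ on the coding strand (GRCm38.p6). Capitals mark the tract where there is one and the start base alone where there is none.
Rps21 (chr2:180257364-180257393, plus strand): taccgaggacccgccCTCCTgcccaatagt
Rps6 (chr4:86857353-86857382, minus strand): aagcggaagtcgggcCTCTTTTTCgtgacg
Rps10 (chr17:27635230-27635259, minus strand): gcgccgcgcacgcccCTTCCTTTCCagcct
Fau (chr19:6057932-6057961, plus strand): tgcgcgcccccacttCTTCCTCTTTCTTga
Rpsa (chr9:120127751-120127780, plus strand): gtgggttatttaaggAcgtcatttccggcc
Rps3 (chr7:99483695-99483724, minus strand): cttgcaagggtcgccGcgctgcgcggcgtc
Rps23 (chr13:90923107-90923136, plus strand): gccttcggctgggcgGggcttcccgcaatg
The motif searched was a C at the start base followed directly by at least 4 bases that are each C or T, on the coding strand. RefSeq's table lists a start for 24 of the 32 members, and 7 of these (29.2%) had the motif at a listed start: Fau, Rps10, Rps15a, Rps18, Rps21, Rps27 and Rps6. Among all 27025 genes with a listed start, 813 (3.01%) had it. Anywhere within the 50 bases from the start, the same letters were found for 21 of the 24 members (87.5%) and for 55.5% of all genes with a start. These are matches of letters in listed starts, which can differ from the start a cell uses. Among those without a start in the table are Rps14, Rps20, Rps27a and Rps29.

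Library totals ran from 1136145 to 1357034 counts. Levels below are CPM, a gene's counts divided by its TMM-scaled library total and multiplied by 1000000, and 1 count was worth from 0.761 to 0.860 CPM. Over members with at least 20 counts in a pair of libraries, the pair of controls differed by a chi-square of 1.36 per degree of freedom and the pair of 1-nitropyrene libraries by 1.85, so no library was taken as a copy of another. Between the groups it lay between 10.5 and 12.3, and without Rps27a between 5.52 and 7.19, near the 5.82 to 6.02 over all genes.

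The summed footprint level of the small-subunit genes differed little between the groups, and its direction turned with the scaling. Their summed level was 12704 and 12899 CPM in control and 13125 and 13452 CPM in treated libraries. Both treated libraries lay above both controls, by 1.04-fold on average (exact two-sided permutation test, p = 0.333, the smallest that 2 against 2 allows). As a plain share of all counts the order was the opposite. The members took 1.33% ± 0.0152 of the control libraries and 1.24% ± 0.0174 of the 1-nitropyrene libraries (SD, n = 2 each; exact permutation p = 0.333). TMM and total counts differ by 0.16 in the median log2 fold change of all genes tested, -0.0076 with TMM and -0.17 with total counts. The 2 most counted identifiers took 29.7% of both control libraries and 32.9% and 33.0% of the 1-nitropyrene libraries. Their part in the difference between the scalings was not tested. Without an added standard, which scaling gives the change per cell was not tested.

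Single genes were then tested within the fit over all genes. Of the 32 members, 28 passed the filter on low counts. Its minimum was reached in every library by 25 of these and in 3 libraries by the other 3 (Rps2, Rps6 and Rps28). Rps2 and Rps28 reached it in 1 control library and both treated libraries, and Rps6 in both controls and 1 treated library. Footprints rose for 6 of the 28 in 1-nitropyrene cells (Rps2, Rps13, Rpsa, Rps23, Rps12 and Rps21) and fell for 2 (Rps27a and Rps3), while 20 did not pass the test (edgeR quasi-likelihood test, called where the p adjusted by Benjamini-Hochberg over the 7719 tested genes was under 0.05). That is 28.6% of the tested members, 21.4% higher and 7.14% lower. Among all genes tested 17.3% were called, 9.68% higher and 7.58% lower. The members are abundant, and abundant genes are called more often. Among the 1933 tested genes that had a mean count of at least 92, 36.4% were called, 24.7% higher and 11.7% lower. The 16 members among them included 7 called (43.8%), 5 higher and 2 lower, so their share lay near that of other abundant genes. The median log2 fold change of the 28 members was 0.14, with quartiles of -0.14 and 0.41, against -0.0076 over all genes. Without 1-nitropyrene replicate 3 the calls were 3 higher and 2 lower of 29 members tested (5.75% and 4.24% of all genes in that fit), and the median was 0.038.

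**Figure D1:**
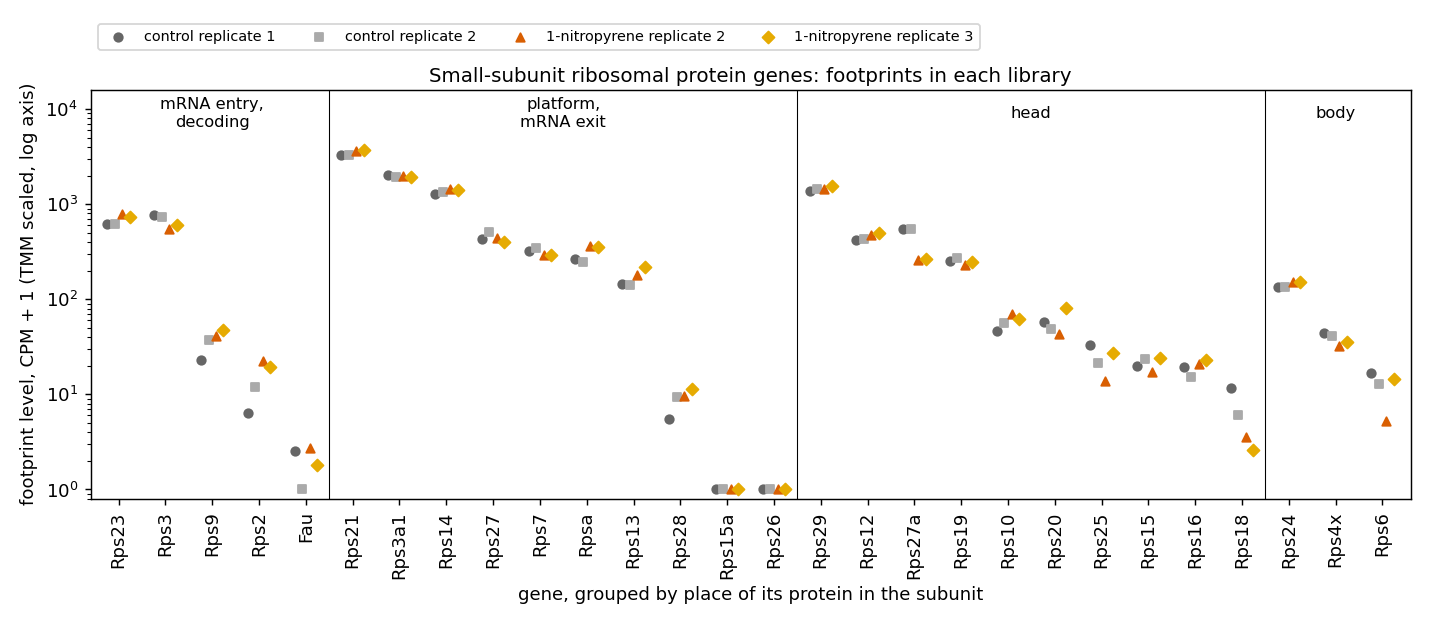
Footprint level of 28 of the 32 members in each library, as CPM plus 1 on a log axis, grouped by the place of the protein in the subunit. The libraries of a gene mostly sit together, while genes run from Rps21 at 3257 to 3731 CPM down to Rps15a and Rps26, listed at 0; values are not divided by gene length.

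For 19 of the 28 tested members, the CPM of control and treated libraries did not overlap. In 14 the treated libraries were higher and in 5 lower, where 57.3% of all genes tested did not overlap, 28.6% higher and 28.7% lower. Scaled to total counts, 8 members were higher and 9 lower without overlap (18.5% and 39.6% of all genes). Called with total counts were 2 higher members, Rpsa and Rps13, and 6 lower members, Rps27a, Rps3, Rps3a1, Rps7, Rps27 and Rps19 (5.31% and 14.2% of all genes). The DESeq2 Wald test gave an adjusted p for 18 members and called Rpsa, Rps23 and Rps21 higher and Rps27a and Rps3 lower (8.94% and 2.95% of the genes it gave an adjusted p). Limma-voom called 8 members higher, adding Rps29 and Rps14 to the 6, and 2 lower (9.25% and 6.93% of all genes). Rps27a, Rps3 and Rpsa were called in the same direction by all of these analyses.

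**Figure D2:**
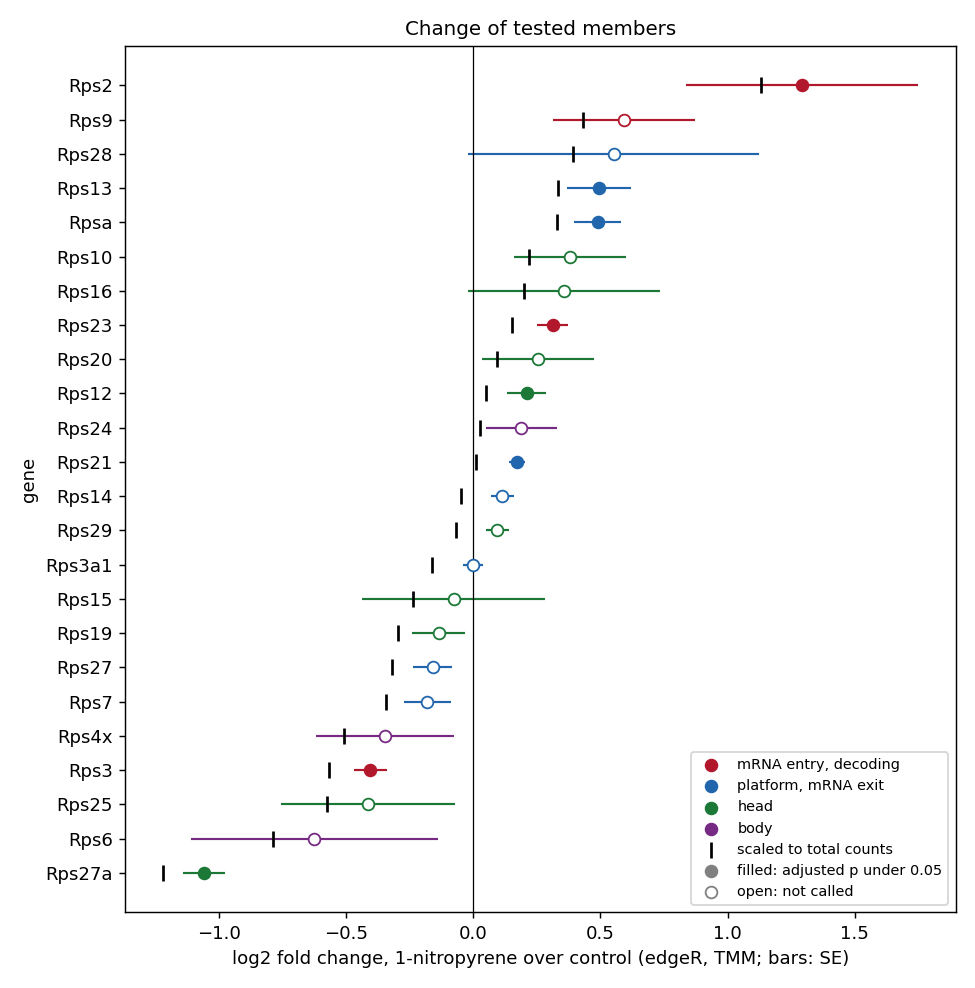
Log2 fold change of 24 of the 28 tested members (circles, bars are SE; filled where the adjusted p was under 0.05), coloured by place in the subunit, with the value scaled to total counts as a black tick. Rps27a stands at -1.06 below the other members, and total counts moved every member shown down by about the same step.

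Proteins at the mRNA entry channel and the decoding centre come first, since they meet the mRNA. Among Rps2, Rps3, Rps9, Rps23 and Fau, 2 of the 4 tested rose and 1 fell. Across all 7719 tested genes 9.68% were called higher and 7.58% lower, and in the 1933 most counted of them 24.7% and 11.7%. These shares are the background for the calls in every place below. Each place holds few members, and differences between places were not tested. Rps3 (ENSMUSG00000030744, chr7:99477896-99483709) lines the entry channel and has also been tied to DNA repair. Its level was 775 and 738 CPM in control and 542 and 601 CPM in treated libraries. Both treated libraries were below both controls, and the level fell to 0.756 of control (edgeR log2 fold change -0.40 ± 0.0636 SE, adjusted p = 1.34e-08). It was called in all 11 alternatives tried, with log2 fold changes from -0.56 to -0.32.

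Rps23 (ENSMUSG00000049517, chr13:90923122-90924732), whose loop reaches into the decoding centre, moved the other way. It stood at 612 and 611 CPM in control and 781 and 738 CPM in treated libraries. The groups did not overlap, and the rise was 1.24-fold (edgeR log2 fold change 0.31 ± 0.0625 SE, adjusted p = 1.86e-05). Scaled to total counts it was 0.15 and was not called (adjusted p = 0.065, edgeR). Rps2 (ENSMUSG00000044533, chr17:24718121-24721927), on the other side of the entry channel, had only 7 and 13 counts in control and 25 and 23 in treated libraries. It passed the filter through the treated libraries, since only 1 control library reached the minimum. Its 2.45-fold rise (edgeR log2 fold change 1.29 ± 0.455 SE, adjusted p = 0.0317) had the largest estimate among the members and one of the largest errors. The call was lost without control replicate 1 (adjusted p = 0.347), without 1-nitropyrene replicate 2 (0.221), without 1-nitropyrene replicate 3 (0.0783) and with total counts (0.0616); RefSeq names 12 pseudogenes after Rps2.

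The remaining genes of this place gave no call. Rps9, a protein of the entry channel, had 29 and 43 counts in control and 47 and 59 in 1-nitropyrene libraries, a log2 fold change of 0.59 ± 0.278 SE (edgeR adjusted p = 0.126). Fau makes the protein Rps30 fused to a ubiquitin-like protein that is cut off afterwards. Control libraries had 2 and 0 counts of it and treated libraries 2 and 1, too few to pass the main filter. With 0 counts, the true level could still be as high as that of 3 counts, which is 2.28 to 2.58 CPM in these libraries (counting error only).

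The platform and the mRNA exit side held 11 members, of which 9 were tested, 3 rose and 0 fell by edgeR. Of those not called, Rps14 was higher and Rps27 lower at an unadjusted p under 0.05. With total counts Rpsa and Rps13 were called higher and Rps3a1, Rps7 and Rps27 lower. Rps21 (ENSMUSG00000039001, chr2:180257379-180258444), a short protein that lies next to Rpsa, carried more counts than any other member: 4282 and 3898 in control and 4235 and 4710 in 1-nitropyrene libraries. Its level was 3257 and 3289 CPM against 3644 and 3731 CPM. The groups did not overlap, yet the rise was only 1.13-fold (edgeR log2 fold change 0.17 ± 0.0311 SE, adjusted p = 1.25e-06). A change this small depended on the scaling, and with total counts the log2 fold change was 0.011 (adjusted p = 0.832).

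Rpsa (ENSMUSG00000032518, chr9:120127766-120132369) encodes the protein once named the laminin receptor, which sits at the back of the subunit near the exit channel. It was at 267 and 246 CPM in control and 367 and 354 CPM in treated libraries. All treated values were above all control values, a 1.40-fold rise (edgeR log2 fold change 0.49 ± 0.0931 SE, adjusted p = 5.54e-06). It was called in all 11 alternatives, with log2 fold changes from 0.33 to 0.55 and adjusted p up to 0.0131. Rps13 (ENSMUSG00000090862, chr7:116331507-116334190), a binder of the central domain of the ribosomal RNA, was at 142 and 142 CPM in control and 181 and 219 CPM in treated libraries. The treated libraries were higher but apart from each other, and the rise was 1.41-fold (edgeR log2 fold change 0.49 ± 0.127 SE, adjusted p = 0.0015). The call for Rps13 was lost without 1-nitropyrene replicate 3 (log2 fold change 0.35, adjusted p = 0.164) and with the DESeq2 Wald test (adjusted p = 0.095).

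With TMM, other platform proteins stayed close to their control level. The deepest of them had narrow intervals, which leave out the uncertainty of the scaling. Rps3a1, which helps to form the exit channel, was at 2014 and 1931 CPM in control and 1996 and 1952 CPM in 1-nitropyrene libraries. The groups overlapped, and the 95% interval of its log2 fold change ran from -0.076 to 0.077 with TMM. With total counts it was called lower at -0.16. Rps14, a platform protein known from the 5q- form of myelodysplasia in its human version, was at 1276 and 1353 CPM against 1429 and 1416 CPM. The treated libraries were higher, by a log2 fold change of 0.11 ± 0.0454 SE that was not called (edgeR adjusted p = 0.062). It was -0.047 with total counts, and limma-voom called it higher (adjusted p = 0.0189).

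Rps7 and Rps27 are bound next to each other on the body side of the platform. Rps7 was at 317 and 349 CPM in control and 294 and 293 CPM in 1-nitropyrene libraries (log2 fold change -0.18 ± 0.092 SE). Rps27 was at 434 and 507 CPM against 440 and 402 CPM (-0.16 ± 0.0773 SE). Neither was called with TMM (edgeR adjusted p = 0.167 and 0.143). With total counts both were called lower (adjusted p = 0.0026 and 6e-04).

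Scarce or absent counts closed this group. Rps28, which lies at the exit channel, had 6, 10, 10 and 13 counts in the 4 libraries and was not called (edgeR adjusted p = 0.554). Rps15a and Rps26 were listed at 0 in every library, so no change could be measured for them. Rps26 touches the mRNA upstream of the start codon, and Rps15a is a core protein of the central domain. RefSeq names 1 pseudogene after Rps26 and 8 after Rps15a, and their part in the zeros was not tested.

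The head of the subunit held 11 members, of which 10 were tested, 1 rose and 1 fell. Rps27a (ENSMUSG00000020460, chr11:29545842-29548040) had the largest change of any member that was called in every alternative. The gene encodes ubiquitin fused to the ribosomal protein, and the ubiquitin part is released to join the pool of the cell. The controls had 722 and 651 counts and the treated libraries 303 and 337. In CPM the controls stood at 549 and 549 and the treated libraries at 261 and 267, so that replicates were close and the groups far apart. The level fell to 0.481 of control, a 2.08-fold difference (edgeR log2 fold change -1.06 ± 0.0829 SE, adjusted p = 1.19e-34). Over the 11 alternatives the log2 fold change ranged from -1.22 to -1.03, with adjusted p of at most 8.7e-07. RefSeq names 3 pseudogenes after Rps27a, and other ubiquitin genes share part of its sequence; how reads with several matches were counted is not given in the sources used here.

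**Figure D3:**
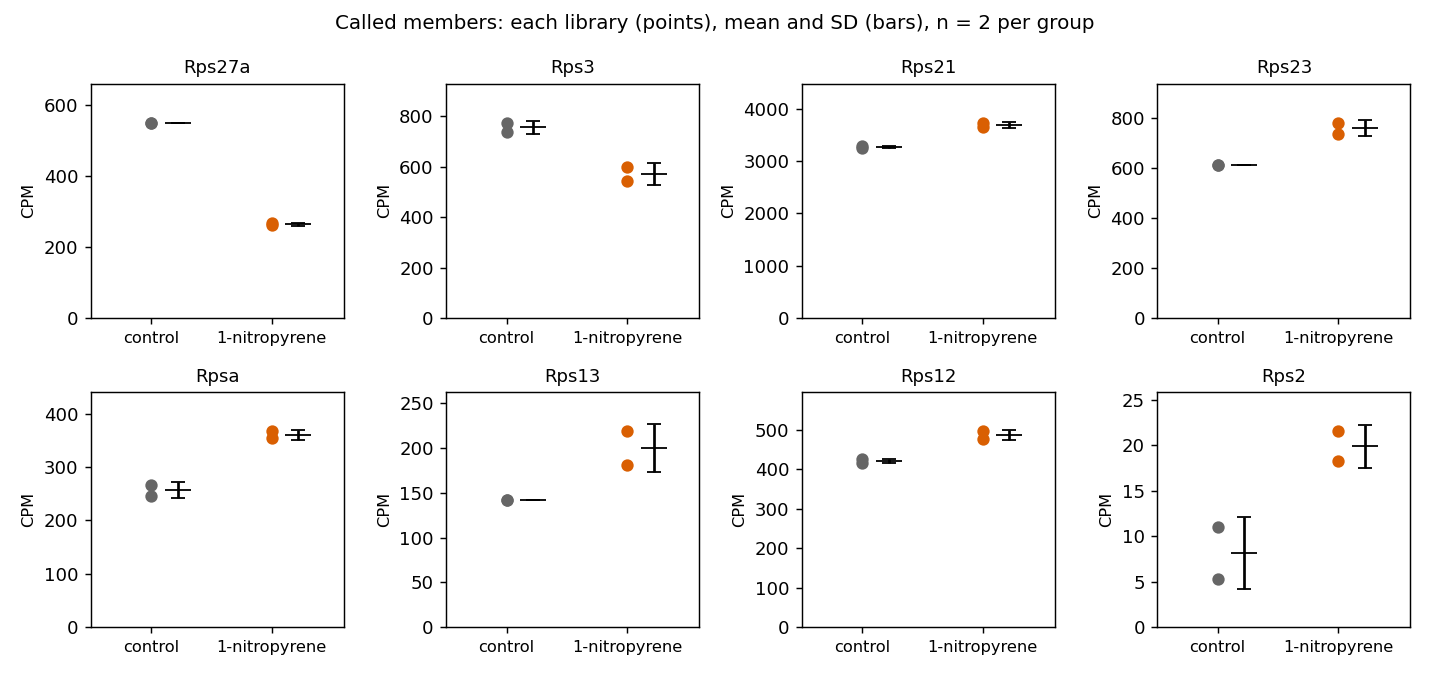
Level in CPM of the 8 called members in each library (points) with the mean and SD of each group (n = 2) beside them; each axis starts at 0. Rps27a falls from 549 to 264 CPM and Rps3 from 757 to 572 CPM, while the other panels rise.

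Among the remaining head proteins the changes were small or uncertain. Rps12 (ENSMUSG00000061983, chr10:23785183-23787383), a protein of the beak of the head, was at 417 and 425 CPM in control and 478 and 496 CPM in 1-nitropyrene libraries. The groups did not overlap and the rise was 1.16-fold (edgeR log2 fold change 0.21 ± 0.0765 SE, adjusted p = 0.0389). The call was lost without any 1 of the 4 libraries (adjusted p from 0.100 to 0.225), with total counts (0.703) and with the DESeq2 Wald test (0.275); 23 pseudogenes carry its name. Rps29, a small zinc-binding protein, was at 1374 and 1441 CPM against 1433 and 1571 CPM. The groups overlapped, and the log2 fold change of 0.095 ± 0.0442 SE was not called (edgeR adjusted p = 0.122). Limma-voom called Rps29 higher (adjusted p = 0.0422), while with total counts its value turned to -0.066.

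Rps19, the gene mutated most often in Diamond-Blackfan anaemia, was at 250 and 271 CPM in control and 228 and 246 CPM in 1-nitropyrene libraries. The treated libraries were the lower ones, by a log2 fold change of -0.13 ± 0.104 SE (edgeR adjusted p = 0.397). With total counts it was called lower at -0.30 (adjusted p = 0.027). Rps10, a protein near the entry channel that is ubiquitinated when ribosomes collide, was at 44.9 and 55.7 CPM against 69.7 and 61.0 CPM. The treated libraries were higher without overlap, but the log2 fold change of 0.38 ± 0.221 SE was not called (edgeR adjusted p = 0.238). Rps20, marked in the same way at collided ribosomes, was at 56.3 and 47.2 CPM against 42.2 and 80.8 CPM. The treated libraries lay on either side of the controls, and the log2 fold change of 0.25 ± 0.222 SE (edgeR adjusted p = 0.465) became -0.30 without 1-nitropyrene replicate 3.

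Rps25, needed by some viral and cellular internal ribosome entry sites, was at 31.9 and 20.2 CPM in control and 12.9 and 26.1 CPM in 1-nitropyrene libraries. Its groups overlapped (log2 fold change -0.41 ± 0.341 SE, edgeR adjusted p = 0.437). Without 1-nitropyrene replicate 2 the value was 0.0072. Rps15 and Rps16, whose tails reach towards the tRNA sites, had 17 to 29 counts a library and were not called (edgeR adjusted p = 0.923 and 0.562). Rps18, also near the tRNAs, had 14 and 6 counts in control and 3 and 2 in treated libraries. It did not pass the main filter and has no value in the reported fit. Both treated libraries lay below both controls. With the filter of 5 CPM in 2 libraries its log2 fold change was -1.89 (edgeR adjusted p = 0.0787, not called). With no filter it was -1.88 (edgeR adjusted p = 0.127, not called).

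None of the 5 body proteins was called by edgeR with TMM; at an unadjusted p under 0.05 there was 1, and neither total counts nor limma-voom called any. The DESeq2 Wald test called none of those it gave an adjusted p. Rps6 is the main substrate of the S6 kinases downstream of mTOR. Its counts were 21 and 14 in control and 5 and 17 in treated libraries. The lowest value and one close to the controls came from the same group, and the log2 fold change was -0.62 ± 0.485 SE (edgeR adjusted p = 0.405). It ranged from -1.67 without 1-nitropyrene replicate 3 to -0.037 without 1-nitropyrene replicate 2.

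Rps24 and Rps4x, also of the body, differed in depth. Rps24, a Diamond-Blackfan gene with many splice forms, was at 132 and 132 CPM in control and 152 and 150 CPM in 1-nitropyrene libraries. The treated libraries were higher without a call (edgeR log2 fold change 0.19 ± 0.139 SE, adjusted p = 0.373). Rps4x, the X-linked form of its protein, had 57 and 48 counts against 36 and 44 (-0.35 ± 0.272 SE, edgeR adjusted p = 0.408).

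The shares that members took of their own sum do not depend on the scaling of libraries. In controls Rps27a made up 4.29% ± 0.0457 of the small-subunit counts, and with 1-nitropyrene 1.99% ± 0.0015 (SD, n = 2 per group). Rps3 went from 5.91% ± 0.267 to 4.30% ± 0.240, and Rpsa from 2.10% and 1.90% in the control libraries to 2.79% and 2.63%. In each of these 3 the groups were apart by more than the spread of the replicates, although an exact permutation test of 2 against 2 cannot go below p = 0.333. Against the summed counts of the other 31 members, the log2 ratio was -1.15 for Rps27a, -0.48 for Rps3, 0.45 for Rpsa, 0.44 for Rps13 and 0.27 for Rps23. The members thus changed unequally, whichever scaling was used. Without Rps27a the summed level was 1.06-fold of control with TMM and 0.951 of control with total counts.

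A few genes carried most of the class. Rps21, Rps3a1, Rps29, Rps14 and Rps23 together held 67.2% and 66.9% of the members' counts in control and 70.7% and 69.9% in treated libraries. The sum is therefore mainly a sum over 5 genes. Without them it was 4171 and 4274 CPM in control and 3841 and 4044 CPM in 1-nitropyrene libraries, or 0.934 of control. This remainder still holds Rps27a, whose mean went from 549 CPM in control to 264 CPM in 1-nitropyrene libraries. That fall is about as large as the fall of the whole remainder, so the value of 0.934 does not describe the less counted members as a class. In each library 9 or 10 of the 32 members had fewer than 30 counts. Counts are not per length, and coding lengths were not used here, so the counts of different genes are not compared as levels.

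**Figure D4:**
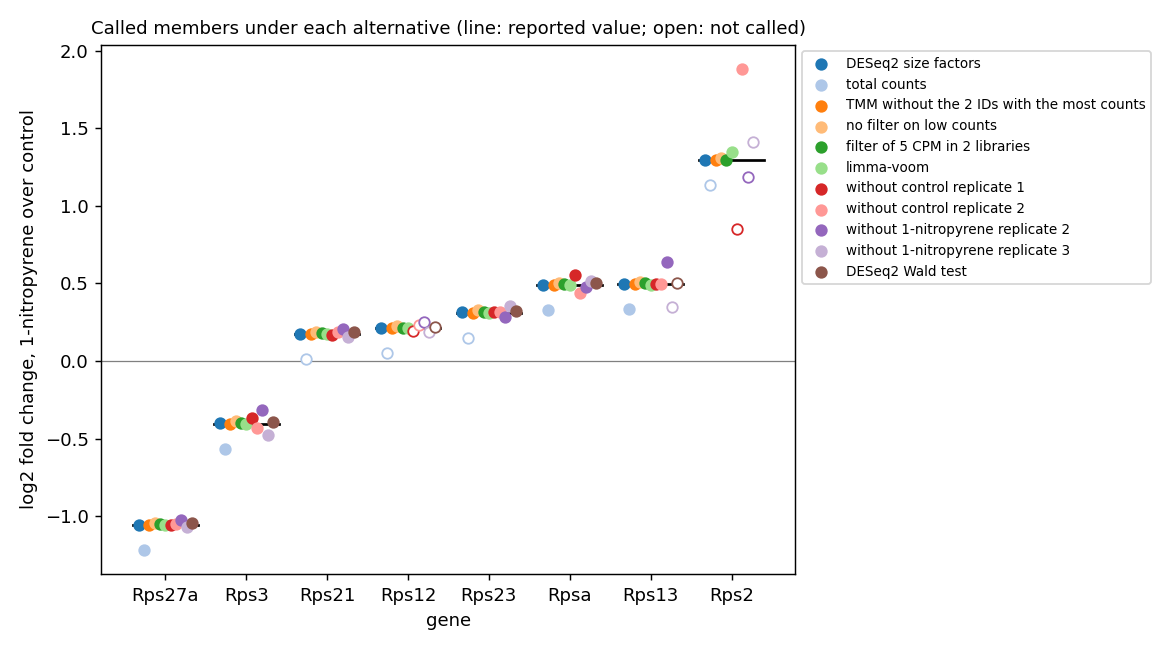
Log2 fold change of the 8 called members under the alternatives, 11 for each but 10 for Rps2, to which DESeq2 gave no adjusted p (points; open where not called) around the reported value (line). The values of Rps27a, Rps3 and Rpsa stay called throughout, whereas Rps12 and Rps2 have several open points.

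Processed pseudogenes of ribosomal protein genes are common in mouse, and their copies can share reads with the parent gene. RefSeq has 120 pseudogenes or related loci whose symbols are a member's symbol followed by -ps, of which 23 belong to Rps12, 13 to Rps19 and 12 each to Rpsa and Rps2. For the 8 members with no such locus the mean count per library ranged from 9.75 to 4281, with a median of 696. For the 15 with 1 to 4 such loci it ranged from 0 to 1791, with a median of 57.3, and for the 9 with 5 or more from 0 to 558, with a median of 113. Of the 5 members with the most counts, Rps21, Rps3a1 and Rps14 had no named copy, Rps29 had 1 and Rps23 had 2. Rps9, Rps20 and Rps28 had no named copy either and were scarce. Copies under other symbols were not counted, and the part of shared reads in any value was not tested.

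The members were also described by their age in evolution. Universal proteins have counterparts in bacteria, and the rest are shared by eukaryotes or by eukaryotes and archaea. Of the 13 universal members tested, 4 rose (Rps2, Rps13, Rpsa and Rps23) and 1 fell (Rps3), with a median log2 fold change of 0.25. Of the other 15, 2 rose (Rps12 and Rps21) and 1 fell (Rps27a), with a median of 0.00069. The medians are the values of single uncalled members, Rps20 and Rps3a1, and Rps20 became -0.30 without 1-nitropyrene replicate 3. Of all genes tested, 9.68% rose and 7.58% fell, and of the 1933 most counted 24.7% and 11.7%. The difference between universal and other members was not tested. The calls of Rps2, Rps12 and Rps13 were lost in several alternatives, and those of Rps21 and Rps23 with total counts.

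The 20 members that were not called fall into deep and shallow ones. In the 9 with a mean count of at least 100 the log2 fold changes lay between -0.18 and 0.19, with standard errors from 0.039 to 0.175. In the 11 with fewer counts they lay between -0.62 and 0.64, with standard errors from 0.221 to 0.572. For the shallow members, which include Rps6, Rps9, Rps10 and Rps25, a change of the size seen in Rpsa or Rps13 could be missed. How often it would be missed at this depth was not computed.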

How the data were processed

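Ribosome footprints of MLE-12 cells were counted in 4 libraries. The deposited table holds whole-number counts per Ensembl gene, not normalized; per the submitters' processing notes the build was mm10 and the tools included cutadapt, Bowtie, HISAT2, featureCounts and DESeq2. Not given in the sources used here: settings, fragment lengths, strand and how reads with several matches were treated. The table has 0 other sample columns.

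Genes were filtered with filterByExpr (minimum count 10, minimum total 15), scaled with TMM and tested over all 7719 kept genes with edgeR's quasi-likelihood F test, group only (R 4.3.3, edgeR 4.0.16; DESeq2 1.42.0 and limma 3.58.1 as alternatives). Standard errors are the fold change over the root of F, and 95% intervals follow from them; the prior degrees of freedom were infinite, so the spread came from the trend over genes. Other settings tried were total counts, DESeq2's size factors, TMM without the 2 most counted identifiers, no filter, 5 CPM in 2 libraries, DESeq2, limma-voom and leaving out each library.

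The members and lists were chosen with earlier results of these data known. Full statistics were planned for called members (the 6 largest rises and falls) and 11 members picked for their role; the others are given by level. Planned lists of other genes, cell markers, and levels per codon needed symbols or protein lengths and were not analysed here. Places in the subunit are textbook knowledge. Some members enter the fits, counts and sums but are not reported here by name or drawn.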

Additional observations from a re-analysis of the deposited data

How the results depend on the processing

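Of the members, 6 were called higher and 2 lower; the calls were 2 and 6 with total counts, 3 and 2 with the DESeq2 Wald test and 8 and 2 with limma-voom. Each fit without 1 library, in which the single sample left takes the spread of the other group, gave 3 to 5 higher and 2 lower calls (over all genes 382 to 480 higher and 190 to 354 lower, against 747 and 585), a median log2 fold change of 0.038 (without 1-nitropyrene replicate 3) to 0.17, and a log2 ratio of the summed level of 0.039 to 0.087, against 0.14 and 0.054 as reported. With total counts the members' median turned to -0.018, while the median over all genes moved from -0.0076 to -0.17. In the same setting the summed level turned to -0.11, Rps14 to -0.047 and Rps29 to -0.066, and Rps3a1, at 0.00069 as reported, was -0.16. Rps25 turned to 0.0072 without 1-nitropyrene replicate 2 (-1.02 without replicate 3) and Rps20 to -0.30 without 1-nitropyrene replicate 3 (0.65 without replicate 2); the cause was not tested beyond the scaling and the library named. Rps27a, Rps3 and Rpsa kept direction and call in all 11 alternatives. No paired analysis was possible because number 2 is the one replicate number found in both groups. Depth limits the 11 uncalled members with mean counts under 100, and Fau, Rps15a, Rps18 and Rps26, which were not tested in the reported fit.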
